A study of Mus with 30 samples.

Results

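The 25 hearts described here came from every mouse of the series that was infused with angiotensin II (Ang II), out of 30 hearts in all, and they were compared with the 5 hearts of saline-infused mice. Members are all mice whose group label names Ang II. The rule uses no measured value, although it was set with earlier results of these data known. The infused mice fell into 5 groups of 5 C57BL/6 mice, each given Ang II at 500 ng/kg/min for 28 days. The AngII group had saline as its treatment, the AngII+ETH group had ethoxysanguinarine, the AngII+BAI group baicalin and the AngII+GAS group gastrodin, each at 5 mg/kg/d, and the AngII+VAL group had valsartan at 10.4 mg/kg/d. The Control group of 5 C57BL/6 mice received a saline infusion and a saline treatment for the same 28 days. All mice were young adult males, and RNA was taken from bulk cardiac tissue. The drug doses are those of the labels, and no group received a drug without Ang II.

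Ang II is the effector hormone of the renin-angiotensin system. Through its type 1 receptor it constricts vessels, raises blood pressure and drives the growth of cardiac muscle cells and the deposition of matrix by fibroblasts, so that sustained infusion is a standard model of hypertensive heart disease in mice. Valsartan blocks this receptor. Baicalin is a flavone glycoside, gastrodin a phenolic glucoside and ethoxysanguinarine a derivative of a benzophenanthridine alkaloid. A change seen in all infused groups is thus one that was present with saline treatment and with each of the 4 drugs, and this was the question put to the data.

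The values were read as FPKM, that is, fragments scaled to the length of the transcript and to the mapped fragments of the library. The sources used here do not state the unit, and TPM over part of the transcripts cannot be told apart from FPKM. Of 36503 transcript identifiers found in any table, 28298 were in the tables of all 30 mice, and 24844 of these reached 1 FPKM in at least 5 mice and were tested. Of the tested transcripts, 18560 carried Ensembl identifiers and 6284 (25.3%) carried identifiers with the prefix MERGE, here called merged models, whose making the sources used here do not describe. No table at hand paired these identifiers with gene symbols, so the results are given by transcript, no gene name or role is attached to them, and the tissue label could not be checked against cardiac markers. The sum of FPKM over all transcripts was 618206 ± 27026 in the infused hearts and 616268 ± 31838 in the Control hearts (SD, n = 25 and 5; exact permutation test over 142506 divisions, two-sided, adjusted p over 4 library measures = 0.889). The number of transcripts at 1 FPKM or more was 17736 ± 580 in the infused hearts and 17961 ± 1057 in the Control hearts (exact permutation test, adjusted p = 0.661). Correlations between libraries lay between 0.775 and 0.836.

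On the mean of the 5 infused groups, 57 transcripts were higher than in the Control hearts (0.229% of those tested) and 55 were lower (0.221%), a total of 112 (0.451%) at an adjusted p under 0.05 in limma. For all 112, the means of the 5 infused groups lay on one side of the Control mean. The call was made on the mean of these same groups, so this is a description and not a test. On the log2(FPKM + 1) scale, the group difference nearest to Control was 0.07 among the higher transcripts, in AngII. Among the lower ones it was −0.16, in AngII+GAS. A stricter count, which also asked for an unadjusted p under 0.05 in each infused group against Control, kept 46 higher (0.185%) and 52 lower transcripts (0.209%). Those 5 comparisons share the same Control mice. With no test at all, the 5 group means were all above the Control mean for 17.0% of the transcripts and all below it for 22.1%. At an unadjusted p under 0.05, 1020 transcripts were higher and 1396 were lower. In bulk tissue, fewer cells of a type and less RNA per cell cannot be told apart, and this holds for every difference given here. The counts depended on single mice and on scaling. Without the Control mouse 5114 they were 23 higher and 20 lower, without 5155 they were 30 and 13, without 5116 they were 29 and 51, and without 5153 they were 35 and 13. Without the AngII+ETH mouse 5141, 36 higher and 41 lower transcripts were called, and in the stricter count the higher transcripts numbered 29 without that mouse and 30 without the AngII+VAL mouse 5124. Scaling each library to the same sum gave 23 higher and 24 lower, and quantile normalization gave 110 and 84, among them all 57 of the higher and 52 of the 55 lower transcripts.

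**Figure D1:**
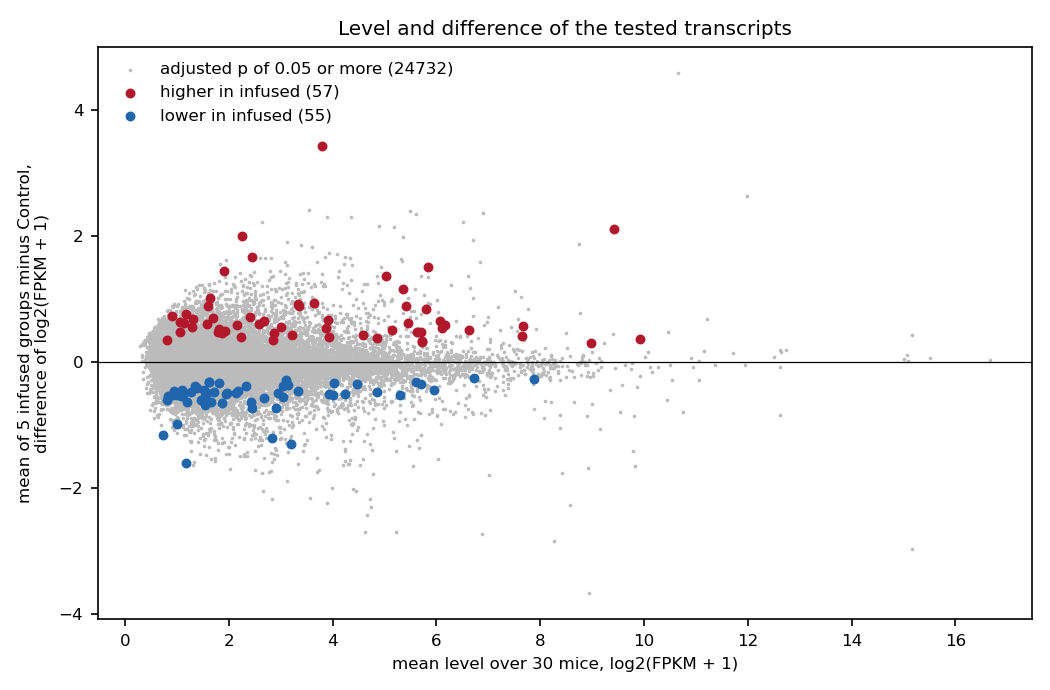
Mean level over the 30 mice on the log2(FPKM + 1) scale (x axis) against the mean of the 5 infused groups minus Control on the same scale (y axis), 1 point per tested transcript. The 57 transcripts higher in infused hearts (red) and the 55 lower ones (blue) lie mostly within 1 log2 unit of 0, and many transcripts in grey that differed as much were not called.

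The differences were mostly small on the scale of the test. On the log2(FPKM + 1) scale, which understates the change of low transcripts, the median difference was 0.58 among the 57 higher transcripts, with a range of 0.30 to 3.44, and −0.50 among the 55 lower ones, with a range of −1.60 to −0.25. The median over all tested transcripts was −0.02. Only 9 higher and 4 lower transcripts differed by 1 or more on this scale, and 70 of the 112 differed by less than log2(1.5) on it. This is not a ratio of FPKM. The lower transcript with the smallest p differed by −0.52 on this scale, while its Control mean was 1.84 times its infused mean. The higher transcripts had a median level of 9.14 FPKM over the 30 mice and the lower ones 2.93 FPKM, against 2.02 FPKM over all tested. Among the 12316 transcripts with a mean under 2 FPKM, 0.227% were called, with 9 higher and 19 lower. Among the 2928 with a mean from 10 to under 100 FPKM, 1.09% were called, with 22 higher and 10 lower. Of the 354 at 100 FPKM or more, 5 were higher and 2 were lower (1.98%).

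By the rule for naming transcripts, which ranks those called by the smallest of their 5 group differences, the first higher transcript was MERGE.8574.6. It was listed at 0 in all 5 Control mice. In the AngII mice its values were 0, 18.6, 19.1, 20.8 and 6.54 FPKM, and in the AngII+ETH mice 20.5, 0, 26.1, 21.4 and 22.8 FPKM. The AngII+BAI mice had 13.7, 0, 16.6, 17.7 and 16.9 FPKM. Thus each of these 3 groups had 1 mouse in which the transcript was listed at 0. The AngII+GAS mice had 24.1, 21.9, 12.4, 23.3 and 27.3 FPKM, and the AngII+VAL mice 22.6, 0, 24.3, 11.97 and 0 FPKM. Of the 25 infused mice, 20 were above 0 and 5 were at the Control value, so that the groups overlapped only at 0. The group means were 13.0 FPKM in AngII, 18.1 in AngII+ETH, 13.0 in AngII+BAI, 21.8 in AngII+GAS and 11.8 in AngII+VAL hearts. The difference was 3.44 ± 0.79 on the log2(FPKM + 1) scale (SE, limma, adjusted p = 0.0477), and its size depends on the pseudocount, since no Control value was above 0. The call was lost under 32 of 44 alternatives, with adjusted p-values between 0.0191 and 0.153 and no change of direction. An exact 0 can stand for a failed estimate, which was not tested here. Of the 3125 tested transcripts with a median of 10 FPKM or more, 167 were listed at 0 in at least 1 mouse.

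MERGE.7589.3 was the second higher transcript. In the Control hearts it was listed at 0 in 4 mice and was at 1.90 FPKM in the mouse 5193. Its values were 2.41, 3.55, 6.58, 6.88 and 6.49 FPKM in AngII mice and 5.97, 3.67, 1.86, 5.60 and 5.51 FPKM in AngII+ETH mice. AngII+BAI mice had 2.14, 7.10, 2.04, 5.75 and 1.37 FPKM. In the groups seen so far, every mouse was above 0, and 2 mice were under the highest Control value. AngII+GAS mice had 4.61, 4.17, 5.59, 4.47 and 0 FPKM, and AngII+VAL mice had 3.995, 5.75, 5.87, 4.55 and 4.97 FPKM. In all, 22 of 25 infused mice were above the highest Control mouse. The group means were 5.18 FPKM in AngII, 4.52 in AngII+ETH, 3.68 in AngII+BAI, 3.77 in AngII+GAS and 5.03 in AngII+VAL hearts. The difference was 2.01 ± 0.33 on the log2(FPKM + 1) scale (SE, limma, adjusted p = 0.00590), and it stayed past the threshold under all 43 alternatives in which the transcript was tested, with adjusted p-values between 0.000323 and 0.0350. Here too an exact 0, as in 4 Control mice, can stand for a failed estimate, which was not tested. With a Control mean of 0.379 FPKM, the transcript was not part of the alternative with a minimum mean in both arms.

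Among the lower transcripts, MERGE.10563.1 ranked first. The AngII mice had 0.313, 0.364, 0.118, 0.308 and 0.0878 FPKM. The AngII+ETH mice had 3.22, 0.201, 0.0821, 0.101 and 0.163 FPKM, and the AngII+BAI mice 0.143, 0.188, 0.0778, 0.261 and 2.83 FPKM. Each of these treated groups thus had 1 mouse near the Control level and 4 far below it, and all 5 AngII mice were low. With an AngII mean under 0.5 FPKM, a transcript was deposited for a drug group only if that group's mean was 0.5 FPKM or more. High mice in the drug groups were therefore a condition of testing this transcript, and no difference between AngII and the drug groups is read from them. The AngII+GAS mice had 0.295, 2.67, 0.189, 0.142 and 0.240 FPKM, and the AngII+VAL mice 0.309, 0.235, 3.18, 3.50 and 0.318 FPKM. The Control mice had 3.63, 3.61, 3.47, 3.20 and 4.40 FPKM. Hence 23 of 25 infused mice were below the lowest Control mouse, and the values of the infused mice fell into a low and a high set, with 5 of the 25 mice at 2.67 FPKM or more. Group means ± SD (n = 5 each) were 0.238 ± 0.126 FPKM in AngII, 0.753 ± 1.38 in AngII+ETH, 0.700 ± 1.19 in AngII+BAI, 0.708 ± 1.10 in AngII+GAS, 1.51 ± 1.68 in AngII+VAL and 3.66 ± 0.446 in Control hearts. The difference was −1.60 ± 0.33 on the log2(FPKM + 1) scale (SE, limma, adjusted p = 0.0231). The call was lost under 5 of 44 alternatives, with adjusted p-values of 0.0727 without the Control mouse 5114, 0.0729 without 5155, 0.0509 without 5116, 0.0842 without 5153, and 0.0642 without the AngII group.

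The other named lower transcript, ENSMUST00000107843, had a broader spread in the infused hearts. Its values were 3.32, 10.8, 7.39, 4.71 and 3.24 FPKM in AngII mice and 2.78, 4.93, 2.14, 10.9 and 10.05 FPKM in AngII+ETH mice. AngII+BAI mice had 2.57, 3.35, 2.37, 7.68 and 6.13 FPKM. The AngII+BAI values were all below the lowest Control value of 10.2 FPKM, while AngII and AngII+ETH had 1 mouse each above it. AngII+GAS mice had 3.53, 1.597, 2.45, 5.09 and 2.89 FPKM, and AngII+VAL mice had 5.01, 2.99, 8.43, 4.28 and 5.95 FPKM. Control mice had 12.3, 10.2, 10.7, 12.1 and 12.8 FPKM, and 23 of 25 infused mice were below all of them. Group means ± SD (n = 5 each) were 5.89 ± 3.20 FPKM in AngII, 6.16 ± 4.09 in AngII+ETH, 4.42 ± 2.36 in AngII+BAI, 3.11 ± 1.31 in AngII+GAS, 5.33 ± 2.04 in AngII+VAL and 11.6 ± 1.09 in Control hearts. The difference was −1.21 ± 0.27 on the log2(FPKM + 1) scale (SE, limma, adjusted p = 0.0418). It was close to the threshold, and 22 of 46 alternatives lost the call, with adjusted p-values from 0.0208 to 0.128.

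**Figure D2:**
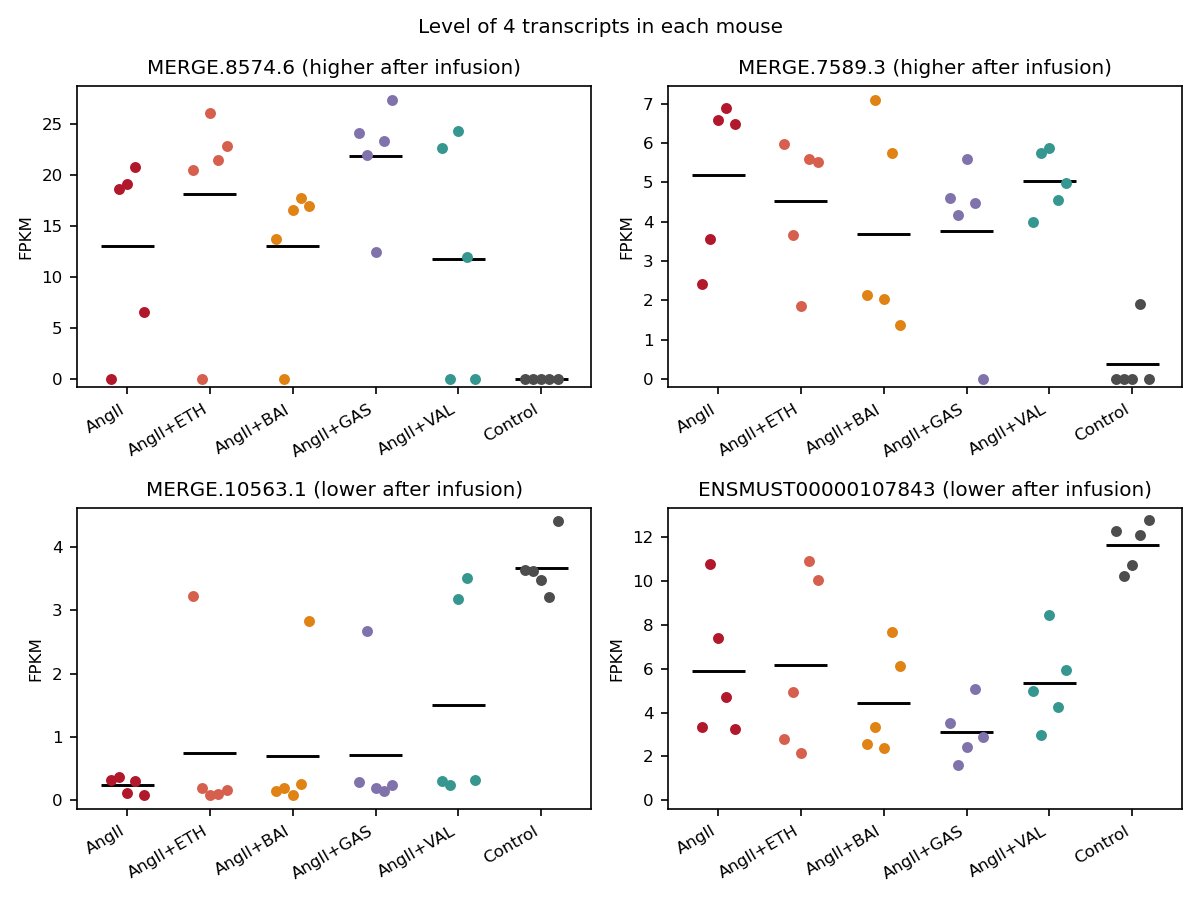
FPKM (y axis) of the 4 named transcripts in each mouse (points), by group (x axis), with the group mean as a black line and n = 5 mice a group. MERGE.8574.6 was at 0 in all Control mice and in 5 infused mice. MERGE.10563.1 was low in all AngII mice and near the Control level in 1 or more mice of each drug-treated group. With its low AngII mean, it could be tested only if each drug-treated group had a mean of 0.5 FPKM or more.

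The first number in the identifier of MERGE.8574.6 was shared by 3 tested models, taken here as models of 1 locus, and these did not move together. Model 4 was lower in the infused hearts, at 6.50 ± 3.79 FPKM against 16.7 ± 6.81 FPKM in the Control hearts (SD, n = 25 and 5), with a difference of −1.31 ± 0.29 on the log2(FPKM + 1) scale (SE, limma, adjusted p = 0.0410). Model 5 was at 2.99 ± 2.90 FPKM in the infused hearts and 5.88 ± 0.906 FPKM in the Control hearts, a difference that did not pass the test (limma, adjusted p = 0.195). In the 5 infused mice listed at 0 for model 6, model 5 was at 4.94 to 14.8 FPKM and model 4 at 9.20 to 15.6 FPKM. The other infused mice had at most 3.51 FPKM of model 5 and 11.43 FPKM of model 4. Why the models differed between mice was not tested. Summed over the 3 models, the level was 25.04 ± 4.27 FPKM in the infused hearts and 22.6 ± 7.13 FPKM in the Control hearts, and the difference of 0.17 on the log2 scale did not pass the test either (limma, adjusted p = 0.743). The summed group means were 24.6 FPKM in AngII, 25.5 in AngII+ETH, 22.0 in AngII+BAI, 27.7 in AngII+GAS, 25.4 in AngII+VAL and 22.6 in Control hearts. The result for MERGE.8574.6 is therefore one of a single model within a locus whose sum over the 3 tested models showed no called difference. Any model missing from the table of a mouse was not part of that sum. The sources used here do not say how the deposited values were divided among the models.

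**Figure D3:**
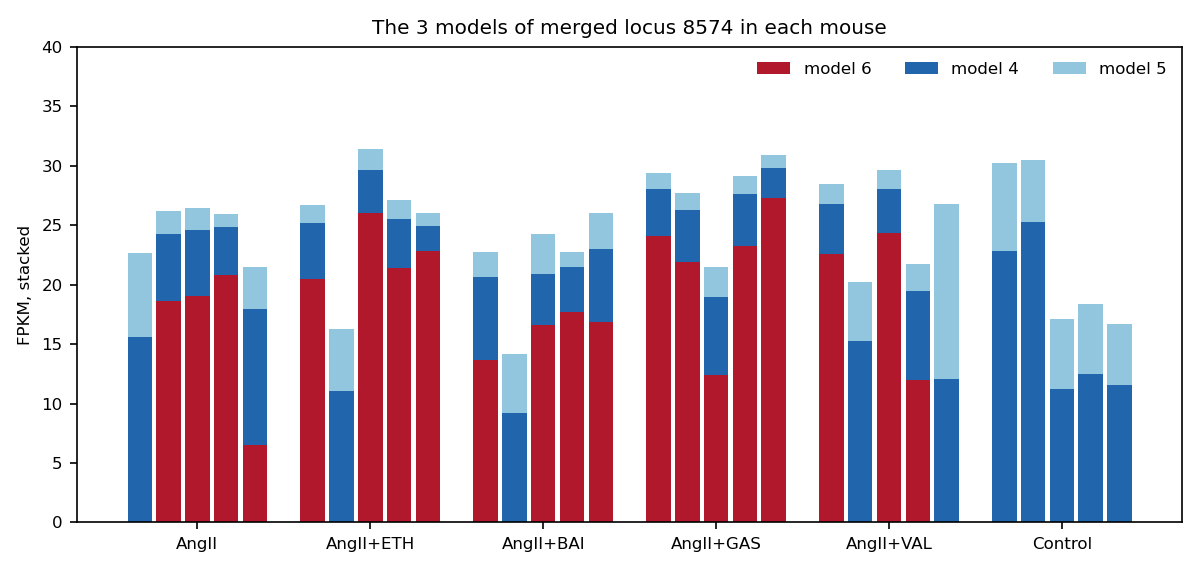
FPKM of the 3 tested models of the locus of MERGE.8574.6 (y axis, stacked from 0), with 1 bar per mouse and the 6 groups along the x axis. Model 6 (red) made up most of the bar in most infused mice and was at 0 in every Control mouse, while the height of the bars overlapped between the groups.

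Of the 112 transcripts, 26 were merged models (23.2%; 11 higher and 15 lower), near the 25.3% among all tested transcripts. They belonged to 25 loci. For 18 of these loci only 1 model was tested. Among the 7 loci with several models, the sum over the models was called for 4. In the locus of MERGE.8574.6, which had called models in both directions, the sum lay on the side of model 6 and not of model 4, and in the other 6 loci it lay on the side of the called model. When all models of a locus were summed before the test, an alternative chosen after seeing the data, 22635 features remained, with 61 higher and 62 lower.

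Differences of both small and larger size were called among the more abundant transcripts. The called higher transcript with the highest Control level was at 999 ± 111 FPKM in the infused hearts and 784 ± 158 FPKM in the Control hearts (SD, n = 25 and 5; limma, log2 difference 0.36 ± 0.08, SE, adjusted p = 0.0477), a call lost under 33 of 46 alternatives. Its lower counterpart was at 228 ± 16.8 FPKM in the infused hearts and 275 ± 29.2 FPKM in the Control hearts (limma, log2 difference −0.27 ± 0.06, SE, adjusted p = 0.0314), lost under 10 of 46. A further 3 higher transcripts are described without their identifiers, and the second and the third of them were chosen after their values were seen. The first is the higher transcript with the smallest p. It was at 119 ± 12.9 FPKM in AngII, 104 ± 12.7 in AngII+ETH, 92.4 ± 5.22 in AngII+BAI, 107 ± 15.8 in AngII+GAS, 91.0 ± 4.77 in AngII+VAL and 71.2 ± 2.61 in Control hearts (SD, n = 5 each). The lowest of the 25 infused mice was at 86.5 FPKM and the highest Control mouse at 73.8 FPKM, so the groups did not overlap. Its difference was 0.51 ± 0.07 on the log2 scale (SE, limma, adjusted p = 0.00176), and the adjusted p stayed between 0.000323 and 0.00862 under 46 alternatives.

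The next transcript had the largest difference among the higher transcripts with a Control mean of 100 FPKM or more. AngII mice had 224, 2164, 695, 1050 and 722 FPKM, AngII+ETH mice 924, 745, 882, 1171 and 759 FPKM, and AngII+BAI mice 682, 564, 585, 947 and 1046 FPKM. AngII+GAS mice had 465, 1018, 778, 674 and 710 FPKM, AngII+VAL mice 401, 544, 375, 964 and 580 FPKM, and Control mice 131, 275, 108, 341 and 93.7 FPKM. All infused mice but the AngII mouse 5143, at 224 FPKM, were above the highest Control mouse. The group means ran from 573 ± 236 FPKM in AngII+VAL to 971 ± 729 FPKM in AngII hearts, against 190 ± 111 FPKM in Control hearts (SD, n = 5 each). The difference was 2.11 ± 0.32 on the log2 scale (SE, limma, adjusted p = 0.00443), with adjusted p-values from 0.000318 to 0.0305 under 46 alternatives.

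The remaining transcript had the second smallest p among the higher ones. It was at 53.8 ± 23.3 FPKM in AngII, 68.5 ± 16.5 in AngII+ETH, 68.0 ± 10.2 in AngII+BAI, 76.4 ± 24.0 in AngII+GAS, 48.7 ± 18.1 in AngII+VAL and 21.1 ± 7.21 in Control hearts (SD, n = 5 each). In 24 of 25 infused mice it was above the highest Control value of 31.7 FPKM, the exception being the AngII mouse 5143 at 24.7 FPKM. The difference was 1.52 ± 0.22 on the log2 scale (SE, limma, adjusted p = 0.00304). Among the lower transcripts, the one with the smallest p was at 1.03 ± 0.245 FPKM in the infused hearts and 1.90 ± 0.279 FPKM in the Control hearts (SD, n = 25 and 5). Its group means were 0.824 FPKM in AngII, 0.952 in AngII+ETH, 1.14 in AngII+BAI, 1.01 in AngII+GAS and 1.23 in AngII+VAL hearts, and all 25 infused mice were below all 5 Control mice (limma, log2 difference −0.52 ± 0.08, SE, adjusted p = 0.00590).

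Complete separation was rare. In 6 of the 24844 transcripts (0.0242%) all 25 infused mice were above all 5 Control mice, and in 7 (0.0282%) all were below. Of these 13 transcripts, 11 were among the 112 called, 6 higher and 5 lower. Their differences on the log2(FPKM + 1) scale lay between 0.36 and 0.77 for the higher ones and between −0.68 and −0.38 for the lower ones. On this scale, which understates the change of low transcripts, the transcripts without overlap were not those with the largest differences.

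Each infused group was also compared with Control in the same limma model. At an adjusted p under 0.05, the AngII group had 30 called transcripts (0.121%), with 15 higher and 15 lower. The AngII+ETH group had 78 (0.314%), with 38 higher and 40 lower, and the AngII+BAI group 48 (0.193%), with 20 higher and 28 lower. The AngII+GAS group had 7 (0.0282%), with 5 higher and 2 lower, and the AngII+VAL group had 1 (0.00403%), which was lower. At an unadjusted p under 0.05 in limma, 1188 higher and 1300 lower transcripts were found for AngII, 1056 and 1132 for AngII+ETH, 812 and 1728 for AngII+BAI, 885 and 1032 for AngII+GAS and 629 and 874 for AngII+VAL. A lower count in one group than in another does not show that the groups differ, and only the F-test among the infused groups bears on that difference. Over the 57 higher transcripts, the median difference to Control was 0.59 in AngII, 0.71 in AngII+ETH, 0.54 in AngII+BAI, 0.59 in AngII+GAS and 0.48 in AngII+VAL hearts. Over the 55 lower transcripts it was −0.49 in AngII, −0.52 in AngII+ETH, −0.48 in AngII+BAI, −0.52 in AngII+GAS and −0.45 in AngII+VAL hearts. These medians are a description, since the transcripts were called on the mean of the same groups. Over all tested transcripts, the group medians were between −0.05, in AngII+BAI, and −0.0017, in AngII. Leaving out an infused group also moved the counts. Without AngII+ETH, 15 higher and 17 lower transcripts were called, without AngII+GAS 29 and 27, without AngII+BAI 42 and 26, without AngII+VAL 44 and 34, and without AngII 53 and 52.

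**Figure D4:**
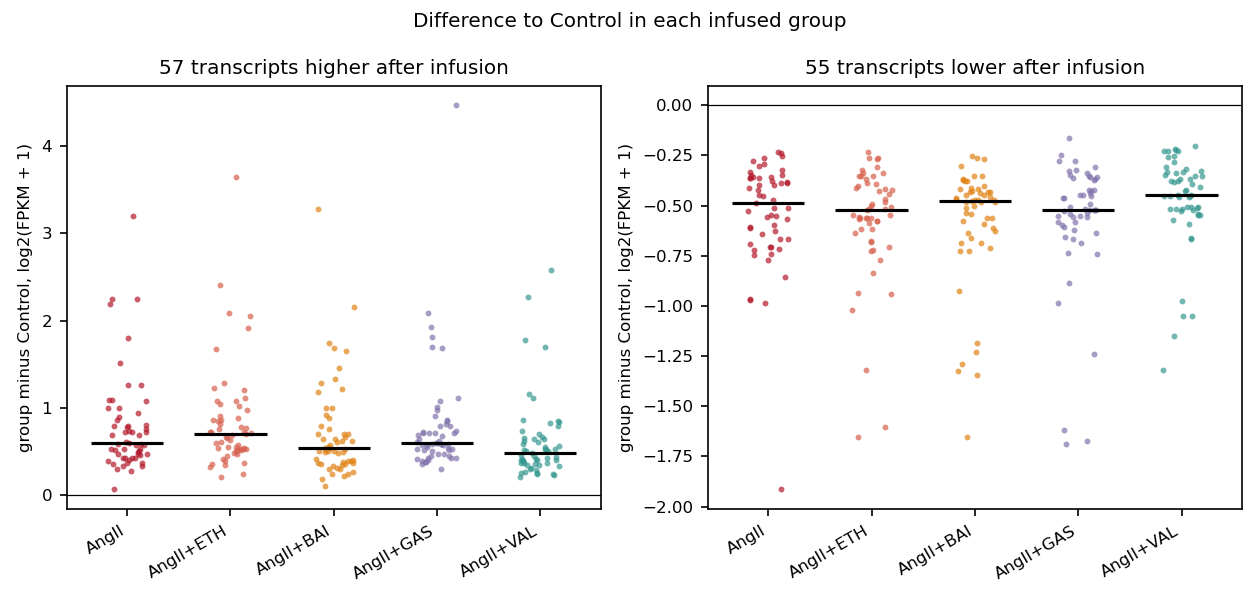
Difference to Control on the log2(FPKM + 1) scale (y axis) in each infused group (x axis) for the 57 higher transcripts (left) and the 55 lower ones (right), 1 point per transcript, with the median as a black line. All points lie on the side of 0 by which the transcripts were grouped, and the group medians lie between 0.48 and 0.71 for the higher and between −0.52 and −0.45 for the lower transcripts.

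Differences among the 5 infused groups were tested with an F-test in the same model. At an adjusted p under 0.05, 2 transcripts differed (0.00805%), and at an unadjusted p under 0.05, 1878 did (7.56%). Of the 112 transcripts called on the mean of the infused groups, 20 (17.9%) had an unadjusted F-test p under 0.05. Both tests use the same estimate of the spread, so the shares were not compared. The 2 transcripts past the threshold are named because they are so few, and neither was called on the mean of the infused groups. MERGE.11353.12 was at 1.04, 0.332, 0.674, 0.932 and 0.472 FPKM in the AngII+ETH mice. Its group mean of 0.690 ± 0.299 FPKM there stood against 3.61 ± 0.750 in AngII, 3.42 ± 1.70 in AngII+BAI, 5.22 ± 2.77 in AngII+GAS, 3.25 ± 0.321 in AngII+VAL and 3.26 ± 1.01 FPKM in Control hearts (SD, n = 5 each; limma F-test, adjusted p = 0.00495). All 5 AngII+ETH mice were below the lowest mouse of the other groups, at 1.80 FPKM. ENSMUST00000032570 was at 0.0551, 1.36, 0.229, 0.0795 and 0.418 FPKM in the AngII+VAL mice. The mean there was 0.429 ± 0.542 FPKM, against 4.20 ± 1.11 in AngII, 3.43 ± 0.411 in AngII+ETH, 3.67 ± 2.38 in AngII+BAI, 4.21 ± 1.01 in AngII+GAS and 4.47 ± 1.22 FPKM in Control hearts (SD, n = 5 each; limma F-test, adjusted p = 0.00495). Here the AngII+BAI mouse 5138, at 0.787 FPKM, overlapped with the AngII+VAL mice. The F-test called 5 transcripts without the AngII mouse 5156, 9 without the AngII+ETH mouse 5123, 8 without the AngII+BAI mouse 5138, and 5 without the AngII+GAS mouse 5135 or the Control mouse 5155. It called 4 without the AngII mouse 5161, the AngII+ETH mouse 5164 or the AngII+BAI mouse 5113, 1 without the AngII+ETH mouse 5125 or the AngII+VAL mice 5121 or 5124, and 26 after quantile normalization. The adjusted p of MERGE.11353.12 was 0.0525 without the AngII+ETH mouse 5125, and that of ENSMUST00000032570 was 0.0569 without the AngII+VAL mouse 5121 and 0.0718 without 5124.

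The changes were also counted in each mouse, as the number of the 57 higher transcripts above the highest Control value and of the 55 lower ones below the lowest. The AngII mice were above the Control range for a median of 49 of the 57 higher transcripts, the AngII+ETH mice for 53, the AngII+BAI mice for 43, the AngII+GAS mice for 50 and the AngII+VAL mice for 46. Below the range for the 55 lower transcripts, the medians were 44 in AngII, 51 in AngII+ETH, 49 in AngII+BAI, 51 in AngII+GAS and 44 in AngII+VAL mice. A Control mouse set against the other 4 was beyond their range for a median of 9 higher and 8 lower transcripts. The AngII mouse 5143 had the fewest, with 35 higher and 33 lower transcripts, and the AngII mouse 5161 was below the Control range for all 55 lower transcripts. The same mice entered the calls, which favours values beyond the Control range. No share over all tested transcripts was computed for it. Infused mice were set against the range of all Control mice, and each Control mouse against that of the other 4. The Control counts are therefore not a like background for the infused ones. The counts describe how evenly the changes were spread among the infused mice and were not tested.

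**Figure D5:**
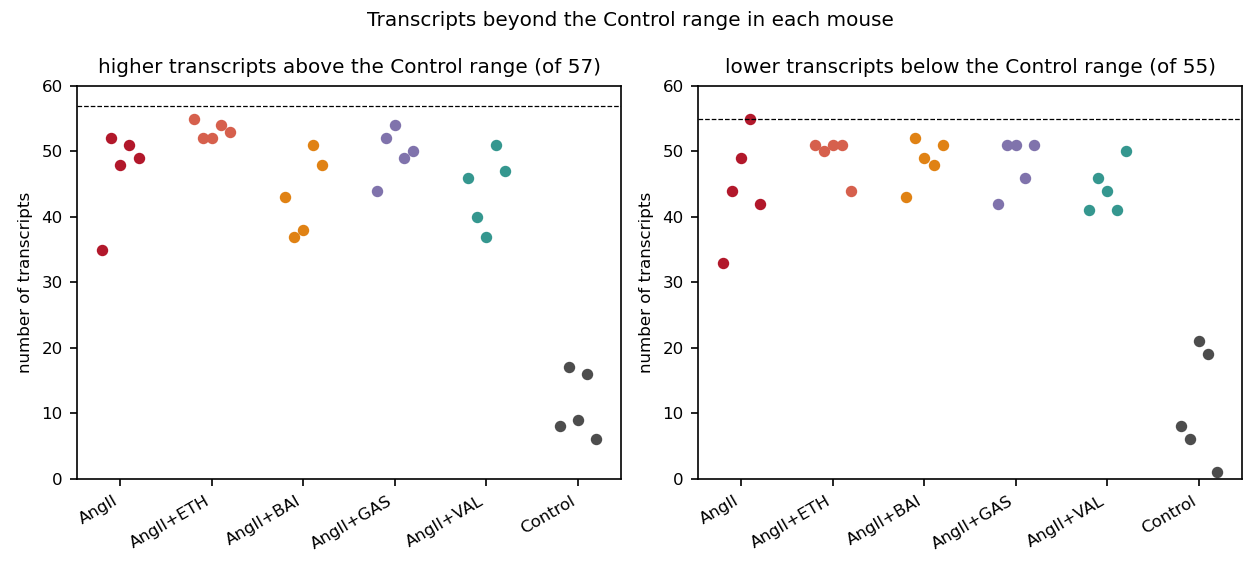
Number of the 57 higher transcripts above the Control range (left) and of the 55 lower ones below it (right) in each mouse (points), by group (x axis), with a dashed line at the total and each Control mouse set against the other 4. The infused mice lie between 35 and 55 on the left and between 33 and 55 on the right. The Control mice all lie lower, between 6 and 17 and between 1 and 21. The transcripts were called on these same mice, and the Control counts use a range of fewer mice, so the gap was not tested.

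The count of lower transcripts depends on how the deposited tables had been filtered. In each of the 5 tables, that of AngII and Control and those of the 4 drug groups, no transcript had a mean under 0.5 FPKM both in AngII, where it was listed there, and in the other group. A transcript was tested only if it was in all tables, so one that was present in the Control hearts and low in AngII and in any drug group could not be tested. Of the 31852 transcripts in the table of AngII and Control, 3554 were absent from at least 1 drug table, and all of them had an AngII mean under 0.5 FPKM. The Control mean was 1 FPKM or more for 529 of them. Among these 529, every Control mouse was above every AngII mouse for 24, and every Control mouse was at 1 FPKM or more for 12. Absent from all 4 drug tables were 1000, of which 83 had a Control mean of 1 FPKM or more, and 44 of these 83 were listed at 0 in at least 1 Control mouse. For 2 of the 83, every Control mouse was above every AngII mouse. These sets were picked for a low AngII mean and a higher Control mean, which favours such separation. No share over all transcripts was computed for it, so the 24 and the 2 are not read as missed differences. In the other direction, 164 transcripts were in all 4 drug tables and not in that of Control. With only transcripts whose mean was at least 0.5 FPKM in both the infused and the Control hearts, an alternative chosen after seeing the data, 51 were higher and 59 lower.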

How the data were processed

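RNA was sequenced from the hearts of 30 mice, 5 in each of 6 groups taken from the labels. The paper's text gives another number of mice per group. No label links mice across groups, so nothing was paired, and no batch is recorded. The authors deposited 1 table for each mouse, with transcripts in rows and a normalized value that was taken to be FPKM. Build mm10 and limma are named in the processing notes of the submitters. Aligner, assembler, quantifier and annotation were not given in the sources used here. DESeq, the test named in the paper, needs counts and was not used on the deposited FPKM. The depth per mouse is unknown, so precision rests on the spread between mice and not on counting intervals.

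Log2(FPKM + 1) was fitted for transcripts in all 30 tables and at 1 FPKM or more in at least 5 mice, with limma 3.58.1 in R 4.3.3 (6 group means, empirical Bayes moderation along a trend in mean level, two-sided). The contrast was the mean of the 5 infused groups minus Control. The Benjamini-Hochberg adjustment ran over the 24844 transcripts. Plots were made with Python 3.11.15 and matplotlib 3.10.9.

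The members and lists were chosen with earlier results of these data known. Named are, in each direction, the 2 called transcripts with the largest value of their smallest group difference, if the higher side had a mean of 1 FPKM or more. The reference table at hand matched 0 of the tested identifiers, so the gene and marker lists that had been set down could not be used. The alternatives were quantile normalization, scaling to equal sums, limma without the trend or with array weights, a pseudocount of 0.1, no filter or a mean of 5 FPKM, Ensembl transcripts alone, infused and Control as 2 groups, and each infused group or each mouse left out. Added after seeing the data were the summing of merged models, a minimum mean in both arms, and the omission of the AngII+BAI mice 5154 and 5113.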

Additional observations from a re-analysis of the deposited data

Results flagged for a closer look

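Of 66 sets of 5 values, 1 for each group and measure, that were checked for a mouse far from the others, 12 held one. The limit used gives about 1 in 20 for independent normal values. These values were not of that kind, and the transcripts were chosen from the same data, so the 12 were not set against chance. For MERGE.10563.1, the AngII+ETH mouse 5141 was at 3.22 FPKM, the AngII+BAI mouse 5133 at 2.83 FPKM and the AngII+GAS mouse 5158 at 2.67 FPKM, each far above the other 4 mice of its group. A mean of 0.5 FPKM or more in each drug group was a condition of testing this transcript. For MERGE.8574.6, the AngII+ETH mouse 5164 and the AngII+BAI mouse 5154 were listed at 0. For MERGE.7589.3, the AngII+GAS mouse 5112 was listed at 0 and the Control mouse 5193 stood at 1.90 FPKM beside 4 values of 0. For ENSMUST00000032570, the AngII+VAL mouse 5148 was at 1.36 FPKM, above the other 4.

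Over whole libraries, the median of log2(FPKM + 1) was 1.39 in the AngII+BAI mouse 5154 and 1.47 in the AngII+GAS mouse 5112, below the other mice of their groups. The mean correlation with the other mice of the group was 0.800 for the AngII mouse 5156 and 0.815 for the AngII+VAL mouse 5131, the lowest of their groups. The lowest of all mice was 0.788, in the AngII+BAI mouse 5113, which this check did not flag.

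The effect against Control differed among the infused groups for MERGE.11353.12 and ENSMUST00000032570 (limma F-test, adjusted p = 0.00495 for both).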

How the results depend on the processing

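No result changed its direction under the alternatives. The called transcripts numbered 110 higher and 84 lower, 88 higher in each infused group and 26 differing among the groups after quantile normalization. Scaling to equal sums gave 23 higher and 24 lower, with 19 and 24 in each group. Array weights gave 32 lower, also in each group. Without AngII+ETH there were 15 higher and 17 lower, with 14 and 17 in each group. Without AngII+GAS there were 29 and 27, with 26 and 27 in each group and 4 differing among groups, without AngII+BAI 26 lower, with 25 in each group and 4 differing, and without AngII+VAL 34 lower, with 33 in each group. Differing among groups were 7 transcripts at a mean of 5 FPKM or more, 1 among Ensembl transcripts alone and 5 without the AngII+BAI mice 5154 and 5113.

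With each mouse left out in turn, 23 to 67 transcripts were higher and 13 to 70 lower, 22 to 55 were higher and 12 to 65 lower in each infused group, and 1 to 9 differed among the infused groups. The lowest counts of called transcripts came without single Control mice, and the cause was not tested. The median difference over all tested transcripts was −0.02 as reported, −0.0029 after quantile normalization and −0.03 after scaling to equal sums. Low FPKM values cannot be given a counting error without the depth.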
